A study of Arabidopsis thaliana with 12 samples.

Results

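The measurement described here is how far the response of gene expression to dexamethasone (DEX) differed between 4 h and 1 h of treatment in a young leaf of Arabidopsis thaliana. For each locus it is the log2 fold change of DEX over mock at 4 h minus the log2 fold change of DEX over mock at 1 h, called the change of response below. It was taken for all 21428 loci of the array table that are not controls, from all 12 arrays, 3 in each of 4 groups, and 274 loci passed. The plants were 35S::gai-GR in the Col-0 ecotype, and every array, mock included, comes from this genotype. Seedlings grown for 9 days, an age the labels give as 9DAS, were moved to medium with 5 µM dexamethasone or with DMSO as the mock treatment, and leaf 3 was profiled after 1 h (groups mock 1 h and DEX 1 h) or after 4 h (groups mock 4 h and DEX 4 h). The 3 arrays of a group come from separate experiments with pooled leaves, dissected from 128 plants after a night in a solution that preserves RNA, so p-values rest on the spread among these experiments. The 35S promoter is active in nearly all cells, so the fusion protein is not limited to cells that carry the plant's own GAI protein. Wild-type plants given the hormone are not analysed here, so effects of dexamethasone itself and of the fusion protein cannot be told apart. Levels are log2 RMA values per locus, where a difference of 1 is a doubling.

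DELLA proteins such as GAI hold back growth by binding transcription factors in the nucleus, and the hormone gibberellin triggers their destruction. The gai form lacks the stretch that the gibberellin receptor recognises and is therefore stable. Fused to the glucocorticoid receptor domain (GR), it stays in the cytoplasm until dexamethasone lets it enter the nucleus. Low gibberellin signalling raises the genes that make and perceive the hormone, a feedback that DELLA proteins mediate, and in young leaves it restrains cell division and expansion.

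Between 1 h and 4 h the response mostly grew or was first called at 4 h, and little of it faded. Limma called 274 of 21428 loci at an adjusted p under 0.05, or 1.28% of those tested, and 11.5% of loci had an unadjusted p under 0.05. The change of response was above 0 for 207 loci (0.966%) and below 0 for 67 (0.313%), with medians of 1.03 and -0.88 on the log2 scale against 0.03 over all loci. Since whole leaves were profiled, fewer cells of a type and less RNA per cell cannot be told apart in any of these values. Among the loci above 0, 110 differed at least 2-fold between the times and 16 at least 4-fold. Among those below 0 the numbers were 22 and 0. Of the 207, 169 were not called at 1 h and were called at 4 h, and 37 were called at 1 h with a larger rise at 4 h. Of the 67, 65 were not called at 1 h and were called as falls at 4 h, and 2, AT1G23390 and AT2G47440, were falls at 1 h that deepened. The last of the 274, AT5G57785, was called at neither time, with log2 fold changes of -0.65 at 1 h and 0.48 at 4 h. A locus not called at 1 h was not shown to lack a response then. The absolute 1 h log2 fold change was under 0.25 for 109 of the 207 and 49 of the 67. Estimates at the 2 times had opposite signs for 61 and 26. These classes use the same arrays as the change of response and describe it only.

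**Figure D1:**
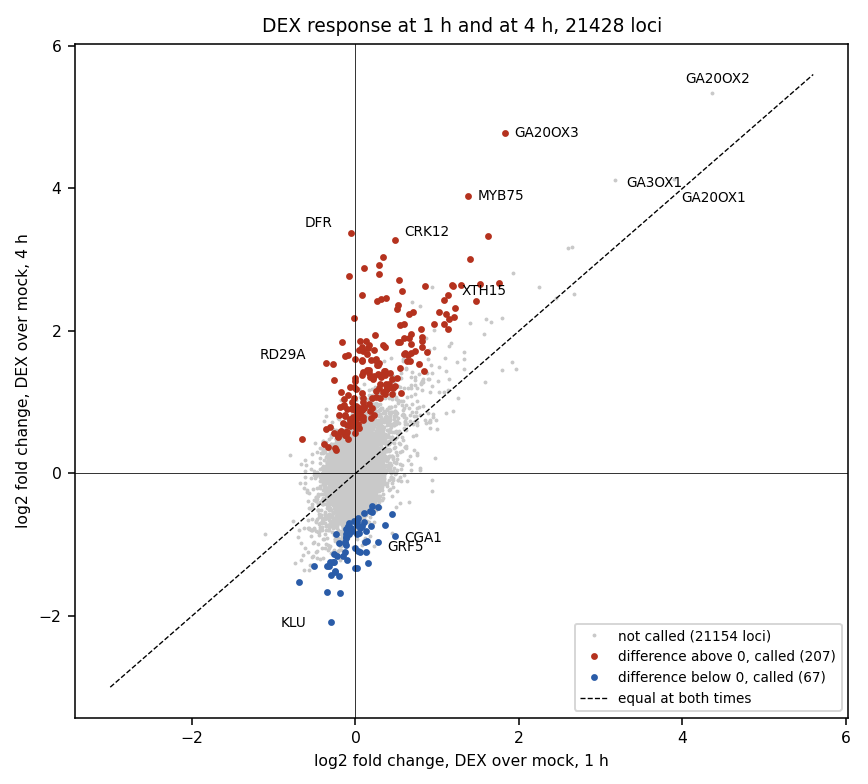
Each point is a locus, with the log2 fold change of DEX over mock at 1 h on the x axis and at 4 h on the y axis. Points on the dashed line responded equally at both times. The 207 red loci lie above the line, most of them near 0 on the x axis, and the 67 blue loci lie below it. GA20OX2, GA20OX1 and GA3OX1, labelled grey points at the upper right, had large responses at both times and were not called.

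The early response itself persisted. At 1 h 153 loci (0.714%) were called, 135 rises (0.63%) and 18 falls (0.084%), against 1693 (7.9%) at 4 h, 1146 rises (5.35%) and 547 falls (2.55%). At 1 h 4.98% of loci had an unadjusted p under 0.05. All 135 rises had the same sign at 4 h and 130 were called there again. Their median log2 fold change was 0.89 at 1 h and 1.43 at 4 h, with the 4 h estimate larger for 106 and smaller for 29. All 18 falls kept their sign, 16 were called again, and their median went from -0.56 to -0.81. Since these loci were picked by the 1 h arrays, which also enter the change of response, the medians carry that selection. No locus called at 1 h had a called change of response in the opposite direction (0 by limma at an adjusted p under 0.05, 2 at an unadjusted p under 0.05). Those 2, found after their values were seen, are bHLH071, at 0.75 and then 0.28 (adjusted p of the change 0.295), and COL2, at -0.59 and then -0.25 (adjusted p 0.322). Of the 1693 loci called at 4 h, 273 (16.1%) had a called change of response. The other calls at 4 h were not shown to differ from the response at 1 h.

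The change of response can come from the DEX leaves, from the mock leaves, or from both, since the 2 mock groups were taken 3 h apart. The mock arrays on their own changed from 1 h to 4 h at 1990 loci (9.29%, with 3.64% rising and 5.64% falling), and the DEX arrays at 4160 (19.4%, with 10.4% rising and 8.98% falling). Time of day and time after transfer to new plates cannot be told apart in this change. Among the 207 loci above 0, DEX leaves moved more than mock leaves in 179, and mock leaves moved more in 28. The mock change was called for 60 of them, 47 times as a fall. The median change from 1 h to 4 h was 0.89 in DEX and -0.15 in mock. Among the 67 loci below 0, DEX leaves moved more in 61, and the medians were -0.95 in DEX and 0.03 in mock. All 3 DEX 4 h arrays lay above the other 9 arrays for 191 of the 207 loci (6.32% of all loci) and below them for 62 of the 67 (4.07% of all loci). The 207 and the 67 were picked with these same arrays, which favours such separation. These counts therefore describe the calls and are no separate evidence for them.

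The array mock 4 h replicate 2 stood apart. Its median was 7.48 against 7.74 to 7.78 for the other 4 h arrays, and it correlated at 0.987 and 0.988 across loci with the other mock 4 h arrays, which correlated with each other at 0.995. Without it 412 loci were called, 58.5% of them above 0 against 75.5% with all arrays, and 265 of the 274 were called in both fits. Centring each array on its median gave 317 calls with 57.7% above 0, and 227 in common. Leaving out any of 4 other arrays lowered the count by over 1.5 times: 170 without mock 1 h replicate 1 and likewise without replicate 2, 175 without mock 1 h replicate 3, and 174 without DEX 1 h replicate 2. Without each of the remaining 7 the count ran from 195 to 324. The sign was the same in these fits for each of the 274. Each of the 59 called genes that the rule for naming picked was also called without mock 4 h replicate 2 and after centring. With each array left out in turn, 146 of the 274 loci and 46 of the 59 named genes passed each time. The standard error of a change of response had a median of 0.163, wider than the 0.116 of a fold change at 1 time, because it rests on 4 groups.

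The genes of flavonoid and anthocyanin synthesis had the highest share of called members among the 34 gene lists examined. Anthocyanins are red to purple pigments made from phenylalanine through the phenylpropanoid and flavonoid pathways. Of 17 enzyme genes listed, 15 were measured. Of these, 12 passed as above 0 (0.966% of all loci) and 0 as below, with a median of 1.77 over the 15. At 1 h 0 of the 15 had a called response by limma, against 0.714% of all loci, and the median was -0.02. The DEX and mock arrays overlapped at 1 h for 14 of the 15, a count that was not made over all loci. At 4 h 14 of 15 were called as rises, against 5.35% of all loci, with a median of 1.66. Of the 16 loci with at least a 4-fold difference, 9 are members of this list or of the list of anthocyanin regulators. The lists were chosen with earlier results of these data known, so this overlap and the rank among lists are descriptions only.

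Dihydroflavonol reductase, the enzyme DFR (AT5G42800) at the entry to anthocyanins, had levels of 10.78, 10.47 and 10.39 in mock and 10.38, 10.09 and 11.02 in DEX at 1 h, then 8.68, 7.85 and 9.32 in mock and 12.13, 12 and 11.84 in DEX at 4 h. The 1 h groups overlapped, mock leaves then dropped below every 1 h array, and DEX leaves rose above every other array. The result was a change of response of 3.42 (SE 0.41), with a limma adjusted p of 0.000655. No locus had a larger value. Its parts were a mock change of -1.93 and a DEX change of 1.49, both called. The lowest of the 12 values is mock 4 h replicate 2 at 7.85, and the call was also made without that array.

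Enzymes that decorate the pigment and carry it to the vacuole passed as well. UF3GT (AT5G54060), which adds xylose to the anthocyanin, had levels of 9.96, 9.89 and 9.64 in mock and 9.59, 9.54 and 10.14 in DEX at 1 h, then 9.25, 8.48 and 9.36 in mock and 11.96, 11.89 and 11.57 in DEX at 4 h. AT4G14090, a glucosyltransferase of anthocyanins, had levels of 9.50, 9.47 and 9.39 in mock and 9.31, 9.42 and 9.94 in DEX at 1 h, then 8.10, 7.71 and 8.54 in mock and 11.16, 10.89 and 10.95 in DEX at 4 h. For both genes the 1 h groups overlapped, and the DEX 4 h arrays stood above the other 9 arrays. The changes of response were 2.85 (SE 0.30, limma adjusted p 0.000257) and 2.78 (SE 0.27, adjusted p 0.00013). UGT78D2 (AT5G17050), a flavonoid glucosyltransferase, reached 2.43, TT19 (AT5G17220), a glutathione transferase that helps bring the pigment to the vacuole, 2.20, and AT5MAT (AT3G29590), which adds malonate, 1.77. AT5MAT was the 1 called enzyme gene in which the mock change was not called, at -0.33.

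Upstream in the pathway the size of the change and the part played by the mock leaves varied. PAL1 (AT2G37040), the ammonia lyase that opens phenylpropanoid synthesis, had levels of 9.79, 9.82 and 9.60 in mock and 10.03, 9.98 and 10.07 in DEX at 1 h, then 8.86, 8.34 and 9.02 in mock and 11.58, 11.57 and 11.47 in DEX at 4 h. Its arrays fell into separate groups, with DEX above mock at each time, narrowly at 1 h and widely at 4 h, and the change of response was 2.51 (SE 0.20, limma adjusted p 2.09e-05). The flavonoid hydroxylase gene TT7 (AT5G07990) changed by 2.64. TT4 (AT5G13930), chalcone synthase, the step that commits carbon to flavonoids, had levels of 11.93, 11.90 and 11.78 in mock and 11.90, 11.72 and 11.99 in DEX at 1 h, then 10.55, 9.64 and 10.57 in mock and 12.02, 11.71 and 11.86 in DEX at 4 h. Here DEX leaves held the 1 h level and mock leaves alone dropped. Its change of response of 1.61 (adjusted p 0.00804) was made of a mock change of -1.62 and a DEX change of -0.00. F3H (AT3G51240), a flavanone hydroxylase, showed the same shape, with a mock change of -1.42, a DEX change of 0.33 that was not called, and a change of response of 1.75. C4H (AT2G30490) and PAL2 (AT3G53260), general phenylpropanoid enzymes, passed at 0.96 and 0.82.

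The 3 enzyme genes that did not pass were 4CL3, a ligase before the flavonoid branch (0.70, adjusted p 0.12), FLS1, flavonol synthase (0.72, 0.287), and TT5, chalcone isomerase (0.66, 0.404). All 15 were above 0 at an unadjusted p under 0.05, which 11.5% of all loci reached in either direction. Over the list the mock arrays fell from 1 h to 4 h in 14 of 15 genes with a median of -0.98. In DEX leaves 8 of 15 rose (10.4% of all loci), with a median of 1.08. In each of the 15, all 3 mock 4 h arrays lay below all 3 mock 1 h arrays, so the lower mock level was not a matter of replicate 2 alone. How many of all loci had this separation was not counted, and 5.64% of all loci were called as mock falls. Without that array the list kept 12 called members and a median of 1.81, and with centring 12 and 1.67.

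**Figure D2:**
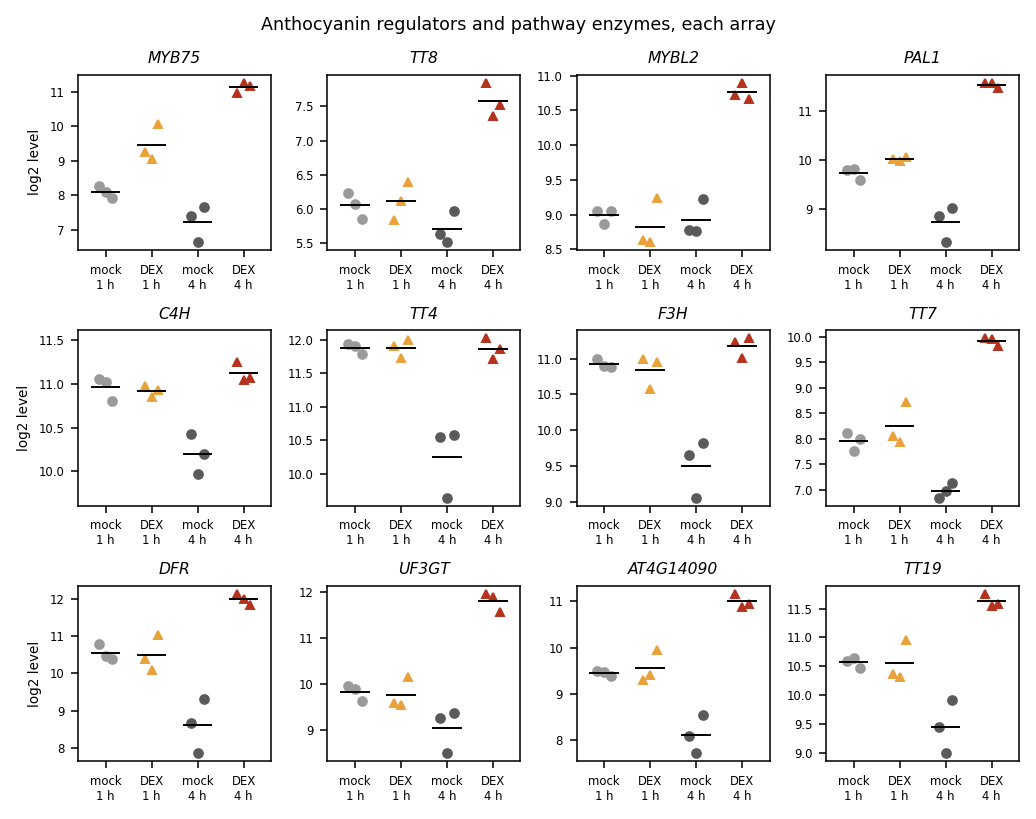
Log2 level on each y axis for the 12 arrays, with circles for mock, triangles for DEX and a bar at the mean of 3 arrays. In the enzyme panels the 2 groups at 1 h lie close together, the mock 4 h arrays lie lowest and the DEX 4 h arrays lie above them. TT4 and F3H in DEX stay near their 1 h level, whereas DFR and UF3GT rise.

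Of the regulators of this pathway, 3 of 9 measured passed, all above 0 (0.966% of all loci). MYB75 (AT1G56650), the MYB activator of anthocyanin genes also known as PAP1, was the earliest: its levels were 8.26, 8.10 and 7.92 in mock and 9.27, 9.06 and 10.07 in DEX at 1 h, then 7.41, 6.65 and 7.67 in mock and 10.97, 11.26 and 11.16 in DEX at 4 h. DEX arrays lay above mock at both times, with no overlap, and the gap widened. The log2 fold change went from 1.37 at 1 h, called, to 3.89 at 4 h, a change of response of 2.51 (SE 0.36), with a limma adjusted p of 0.00252. TT8 (AT4G09820), the bHLH partner of such MYB proteins, had levels of 6.24, 6.08 and 5.86 in mock and 5.84, 6.12 and 6.40 in DEX at 1 h, then 5.63, 5.52 and 5.97 in mock and 7.85, 7.36 and 7.52 in DEX at 4 h. The 1 h groups overlapped and the DEX 4 h arrays lay above the other 9, while the mock mean at 4 h was near background. For TT8 the change of response was 1.80 (SE 0.24, limma adjusted p 0.00118). MYBL2 (AT1G71030), a MYB repressor of the same genes, rose too, with levels of 9.06, 8.86 and 9.05 in mock and 8.63, 8.61 and 9.24 in DEX at 1 h, then 8.79, 8.76 and 9.23 in mock and 10.72, 10.90 and 10.67 in DEX at 4 h. Here the mock change was not called (-0.07), and the change of response was 2.01 (SE 0.23, adjusted p 0.000476). MYB90, a close relative of MYB75, had a change of 0.84 that did not pass (adjusted p 0.114), and EGL3, another bHLH partner, had -0.02.

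A further 3 loci related to this pathway were chosen after their values were seen. CHIL (AT5G05270), a chalcone isomerase-like protein, had a change of response of 1.31, with a mock change of -1.36 and a DEX change of -0.05. HY5 (AT5G11260) and its relative HYH (AT3G17609), bZIP factors of light signalling, both had 1.10, with log2 fold changes of -0.14 and -0.16 at 1 h and 0.96 and 0.94 at 4 h. HY5 had a mock change of -0.90, called, and a DEX change of 0.21, not called, while HYH fell in both treatments, by 1.86 in mock and by 0.76 in DEX. In the other direction, AT1G23390, of the Kelch F-box family that includes proteins promoting turnover of phenylpropanoid enzymes, deepened its fall. Its levels were 9.66, 9.31 and 9.49 in mock and 8.69, 8.77 and 8.95 in DEX at 1 h, then 9.48, 9.51 and 9.67 in mock and 8.13, 7.97 and 7.99 in DEX at 4 h. DEX lay below mock at both times without overlap, and the change of response was -0.84 (SE 0.15, limma adjusted p 0.0137). The other 4 members of its list did not pass, 3 of them being called rises at both times.

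Among gibberellin biosynthesis genes, 3 with large responses at 1 h had no called change of response, and 1 with a response at 1 h had a called larger response at 4 h. GA20OX3 (AT5G07200), an oxidase of the late gibberellin pathway, had levels of 5.63, 5.62 and 5.61 in mock and 7.78, 7.25 and 7.31 in DEX at 1 h, then 5.43, 5.65 and 5.75 in mock and 10.78, 10.24 and 10.14 in DEX at 4 h. Its DEX arrays lay apart from mock at 1 h and rose further, while mock stayed near background (at or under 5.79) at both times. Its log2 fold change was 1.83 at 1 h and 4.78 at 4 h. The change of response was 2.95 (SE 0.23, limma adjusted p 2.09e-05), and it rests on the DEX arrays alone, whose change was 2.94.

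Its paralogs did not pass. GA20OX2 (AT5G51810) had levels of 6.25, 6.11 and 6.34 in mock and 10.71, 10.19 and 10.90 in DEX at 1 h, then 6.48, 6.26 and 6.88 in mock and 11.91, 11.80 and 11.93 in DEX at 4 h. Its DEX 4 h arrays lay above its DEX 1 h arrays, a called change of 1.28, but the change of response of 0.98 missed the threshold (adjusted p 0.0733). GA20OX1 had 0.25 (adjusted p 0.75), and GA3OX1, which forms the bioactive hormone, had 0.95 (SE 0.35, adjusted p 0.284). For these 3 genes the log2 fold changes at 1 h were already 4.37, 3.89 and 3.17. A pathway gene without a called response at 1 h appeared at 4 h: GA3 (AT5G25900), ent-kaurene oxidase, an early step, had levels of 10.51, 10.61 and 10.45 in mock and 10.63, 10.62 and 10.57 in DEX at 1 h, then 10.57, 10.25 and 10.45 in mock and 11.29, 11.26 and 11.40 in DEX at 4 h. Its 9 arrays other than DEX 4 h lay within 10.25 and 10.63, the DEX 4 h arrays all above, and the change was 0.82 (SE 0.14, adjusted p 0.00739). In all, 2 of 14 biosynthesis genes passed, both above 0 (0.966% of all loci), and the median of the 14 was 0.17. From 1 h to 4 h 5 of the 14 were called as rising in DEX leaves, against 10.4% of all loci.

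Of 12 genes of gibberellin perception and the DELLA family, 1 passed. GID1B (AT3G63010), a gibberellin receptor, had levels of 8.07, 8.13 and 8.26 in mock and 9.28, 9.83 and 9.92 in DEX at 1 h, then 7.75, 7.03 and 7.61 in mock and 10.23, 10.06 and 10.07 in DEX at 4 h. DEX lay above mock at both times, and the widening of 1.14 (SE 0.26, limma adjusted p 0.047) came with a mock change of -0.69 and a DEX change of 0.44. This call is a narrow one: it was lost without any of 8 single arrays (each mock 1 h array, DEX 1 h replicates 1 and 2, and each DEX 4 h array), with adjusted p from 0.0737 to 0.129. The receptor GID1A had 0.55 (adjusted p 0.144), the DELLA gene RGA -0.46 (0.174) and the DELLA gene RGL1 -0.52 (0.109), none of which passed. GAI had 0.01 (0.983), and whether its probes also read the transgene was not tested. In the list of gibberellin inactivation 0 of 10 passed, with 1 below 0 at an unadjusted p under 0.05, and its median level of 5.83 is close to background.

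Other genes known from seedlings as early DELLA targets had a larger response at 4 h in several members. Of 10 measured, 4 passed as above 0 (0.966% of all loci) and 0 as below, with a median of 0.81. At 4 h the DEX arrays lay above all other 9 arrays in each of the 10, against 6.32% of all loci. LBD40 (AT1G67100), of the LOB-domain factors, had levels of 6.79, 6.62 and 6.69 in mock and 7.73, 7.96 and 8.30 in DEX at 1 h, then 6.86, 6.54 and 6.80 in mock and 9.70, 9.56 and 8.88 in DEX at 4 h. AT3G11280, a MYB-related factor, had levels of 7.47, 6.76 and 6.95 in mock and 8.17, 7.78 and 8.29 in DEX at 1 h, then 6.40, 6.60 and 6.60 in mock and 8.76, 8.78 and 8.86 in DEX at 4 h. In both genes DEX exceeded mock without overlap at each time, and by more at 4 h. Their changes of response were 1.35 (limma adjusted p 0.0216) and 1.25 (0.0148). AT2G31730, a bHLH factor, had 1.02 and WRKY27 (AT5G52830) 0.84, the last with mock levels near background at both times, so that it rests on the DEX arrays. Without a single array the calls of 2 were lost: LBD40 without any of 7 arrays (the mock 1 h arrays, DEX 1 h and DEX 4 h replicates 1 and 2; adjusted p 0.0508 to 0.0718) and WRKY27 without mock 1 h or DEX 1 h replicate 2 (0.0572 and 0.0535). XERICO, SCL3 and TRM13, with log2 fold changes of 2.64, 1.58 and 2.25 at 1 h, had changes of 0.53, 0.38 and 0.37, which did not pass. In the list of IDD zinc fingers, DNA-binding partners of DELLA proteins, 0 of 11 passed (3 at an unadjusted p under 0.05, against 11.5% of all loci).

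**Figure D3:**
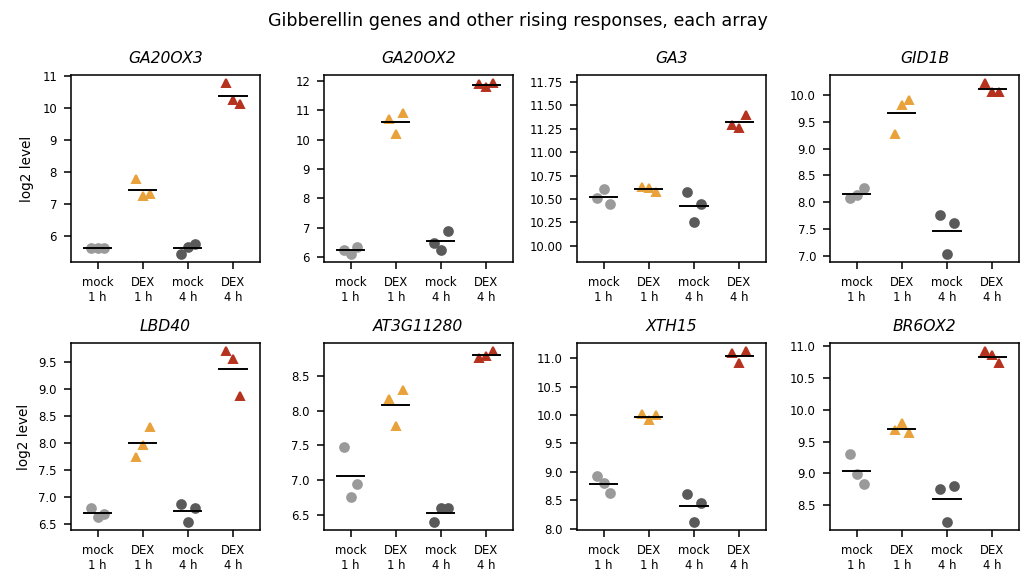
Log2 level on each y axis for the 12 arrays, with circles for mock, triangles for DEX and a bar at the mean of 3 arrays. GA20OX3 goes from near 5.6 in mock to above 10 in DEX at 4 h, GA20OX2 is already above 10 in DEX at 1 h, and GA3 rises at 4 h alone. In the LBD40, XTH15 and BR6OX2 panels DEX lies above mock at 1 h and further above at 4 h.

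Genes that drive leaf growth went the other way in part. Of 20 leaf growth regulators measured, 5 passed as below 0 (0.313% of all loci) and 0 as above, with a median of -0.27. None of the 5 had a called response at 1 h (0.714% of all loci). At that time 2 other members of the list were called falls (0.084% of all loci). KLU (AT1G13710), a cytochrome P450 that prolongs organ growth, had levels of 10.27, 10.17 and 10.11 in mock and 10.05, 9.73 and 9.86 in DEX at 1 h, then 10.27, 10.68 and 10.76 in mock and 8.93, 8.58 and 7.96 in DEX at 4 h. The DEX 4 h arrays lay below all others, whereas the mock 4 h arrays were at or above the mock 1 h arrays. The change of response was -1.78 (SE 0.28, limma adjusted p 0.0049). It was the largest below 0 of all loci.

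GRF5 (AT3G13960), a growth-regulating factor that promotes cell division in leaves, had levels of 9.44, 9.42 and 9.53 in mock and 9.72, 9.84 and 9.64 in DEX at 1 h, then 9.62, 9.31 and 9.53 in mock and 8.51, 8.61 and 8.47 in DEX at 4 h. At 1 h all DEX arrays were above all mock arrays, without passing the test (0.27), and at 4 h they were below all others (-0.96, called). The change of response was -1.23 (SE 0.14, adjusted p 0.000383). GRF7 (AT5G53660) had levels of 7.42, 7.52 and 7.84 in mock and 7.97, 7.95 and 8.21 in DEX at 1 h, then 8.05, 7.76 and 8.24 in mock and 7.61, 7.38 and 7.34 in DEX at 4 h. It too had its DEX arrays above mock at 1 h (0.45, not called) and below at 4 h (-0.57, called), and changed by -1.02 (adjusted p 0.0196). GRF3 (AT2G36400) changed by -0.70 and AN3 (AT5G28640), the coactivator with which these factors work, by -0.76. ANT, another promoter of organ growth, had -0.69 (adjusted p 0.0997). The calls of GRF7, GRF3 and AN3 depended on single arrays, lost without 5, 9 and 9 of the 12, with adjusted p of up to 0.0697 (mock 1 h replicate 1), 0.0951 (mock 1 h replicate 1) and 0.0989 (mock 1 h replicate 3). KLU and GRF5 passed without each array.

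Genes of DNA replication had lower responses at 4 h, few of which passed, and no gene of mitosis passed. Of 18 replication genes, 3 passed, all below 0 (0.313% of all loci). At an unadjusted p under 0.05, 15 were below 0 (11.5% of all loci in either direction). The median was -0.50 against 0.03 over all loci. Replication genes also fell from 1 h to 4 h in mock leaves (7 of 18 called, median -0.30), and further in DEX leaves (16 of 18, median -0.77). Over all loci 5.64% were called as falls in mock and 8.98% in DEX, with medians of -0.04 and -0.02. CYCA3;1 (AT5G43080), a cyclin of S phase, had levels of 10.00, 10.03 and 10.08 in mock and 9.84, 10.00 and 9.98 in DEX at 1 h, then 9.58, 9.34 and 9.68 in mock and 8.70, 8.84 and 8.60 in DEX at 4 h. CDT1A (AT2G31270), a factor that licenses replication origins, had levels of 9.71, 9.74 and 9.74 in mock and 9.66, 9.59 and 9.64 in DEX at 1 h, then 9.70, 9.35 and 9.84 in mock and 8.88, 8.78 and 8.74 in DEX at 4 h. In both the DEX 4 h arrays lay below all others, and mock 4 h lay below mock 1 h in CYCA3;1 and overlapped it in CDT1A. The changes of response were -0.72 (limma adjusted p 0.0261), -0.72 (0.035) and, for PCNA1 (AT1G07370), the sliding clamp of DNA polymerase, -0.62 (0.0347).

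ORC2, of the origin recognition complex, missed the threshold at -0.70 (adjusted p 0.0536), and the helicase genes MCM2, MCM4 and MCM3 had -0.64, -0.63 and -0.50. The count of this list depends on mock 4 h replicate 2: without that array 9 of 18 passed, and with centring 8. The 3 calls were lost without many other single arrays, CYCA3;1 without 8 (adjusted p up to 0.0838), PCNA1 without 10 (up to 0.111) and CDT1A without 11 (up to 0.103), each highest without mock 1 h replicate 1. For mitosis and cytokinesis 0 of 16 passed in limma, 0 had an unadjusted p under 0.05, and the median was 0.07. Cyclins CYCB1;1, CYCB1;3 and CYCB1;4 had changes of 0.03, -0.03 and 0.04. Of 13 inhibitors of cyclin-dependent kinases and genes of endoreduplication, 0 passed (1 at an unadjusted p under 0.05). The difference between the replication list and the mitosis list was not tested.

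**Figure D4:**
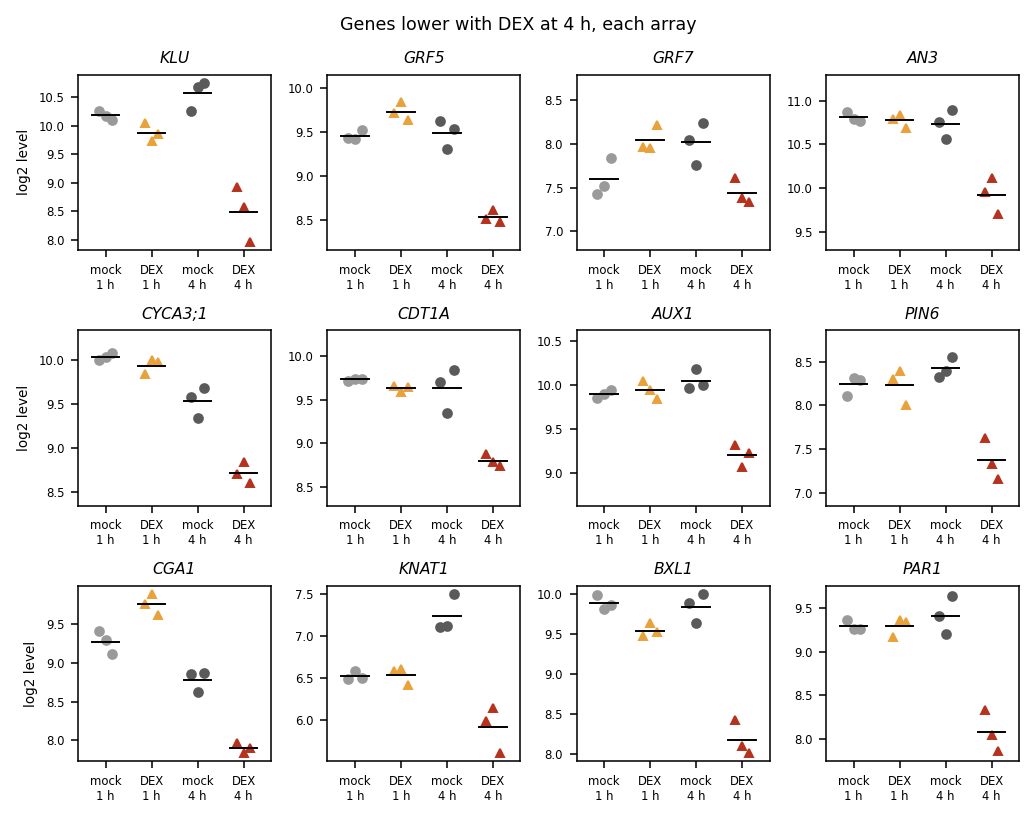
Log2 level on each y axis for the 12 arrays, with circles for mock, triangles for DEX and a bar at the mean of 3 arrays. In all 12 panels the DEX 4 h mean is the lowest of the 4. GRF5, GRF7 and CGA1 have DEX above mock at 1 h, and in the KNAT1 panel mock rises from 1 h to 4 h.

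The genes of the circadian clock changed with time in both treatments. From 1 h to 4 h 11 of 12 clock genes had called changes in mock leaves, 7 up and 4 down, against 9.29% of all loci. In DEX leaves all 12 did, 7 up and 5 down, against 19.4% of all loci. LHY, a morning gene, changed by -2.87 in mock and -2.72 in DEX, and PRR5, expressed later in the day, by 2.67 and 3.50. The change of response passed for 0 of 12 by limma (2 at an unadjusted p under 0.05), with the smallest adjusted p of 0.276 for TOC1.

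**Figure D5:**
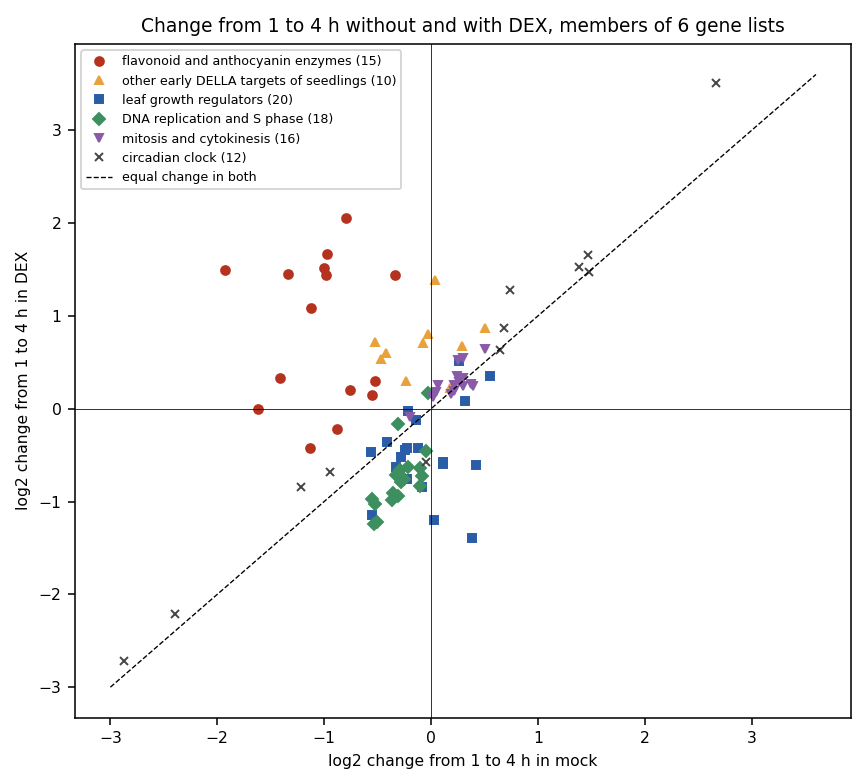
Each point is a gene of 1 of 6 lists, with its log2 change from 1 h to 4 h in mock leaves on the x axis and in DEX leaves on the y axis, so height above the dashed line is the change of response. Flavonoid enzymes lie at the upper left (mock median -0.98, DEX median 1.08), most replication genes lie below the line in the lower left, and mitosis genes lie close to it. Clock genes range from -2.87 to 2.67 in mock, and their changes of response run from -0.53 to 0.84.

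Carriers of auxin, the hormone that patterns leaf growth, were lower at 4 h in part. Of 10 carrier genes 3 passed, all below 0 (0.313% of all loci). Among them were AUX1 (AT2G38120), an influx carrier, at -0.89 (SE 0.14, limma adjusted p 0.0048), and PIN6 (AT1G77110), of the PIN family of auxin carriers, at -1.04 (0.0116). AUX1 had levels of 9.85, 9.90 and 9.95 in mock and 10.05, 9.95 and 9.84 in DEX at 1 h, then 9.97, 10.18 and 10.00 in mock and 9.32, 9.07 and 9.23 in DEX at 4 h. The 9 other arrays lay within 9.84 and 10.18, all above the DEX 4 h arrays. The log2 fold changes at 1 h were 0.05 and -0.01, and at 4 h -0.84 and -1.05. LAX2, another influx carrier, had -0.79 (adjusted p 0.0591). Among the Aux/IAA repressors 0 of 16 passed (2 at an unadjusted p under 0.05), and among GH3 auxin-conjugating enzymes 0 of 5 (5 unadjusted, 1 above and 4 below 0). In the SAUR list 1 of 9 passed, SAUR36 (AT2G45210), at 1.03.

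In the list of brassinosteroid synthesis, inactivation and signalling 2 of 11 genes passed, both of them synthesis enzymes with values above 0 (0.966% of all loci). BR6OX2 (AT3G30180), which makes the active hormone, had levels of 9.31, 8.99 and 8.84 in mock and 9.69, 9.79 and 9.64 in DEX at 1 h, then 8.76, 8.24 and 8.80 in mock and 10.92, 10.86 and 10.73 in DEX at 4 h. DEX lay above mock at each time, and the log2 fold change grew from 0.66, not called, to 2.24, a change of 1.58 (SE 0.21, limma adjusted p 0.00142). DWF4 (AT3G50660), a rate-limiting hydroxylase of the pathway, had levels of 9.04, 8.88 and 9.04 in mock and 8.57, 8.47 and 8.82 in DEX at 1 h, then 8.78, 8.63 and 8.66 in mock and 9.32, 9.61 and 9.01 in DEX at 4 h. Its DEX arrays lay below mock at 1 h (-0.37, not called) and above it at 4 h (0.62, called). The change of 0.99 (adjusted p 0.0203) was lost without any of 5 arrays: mock 1 h replicates 1 and 3, DEX 1 h replicates 1 and 2, and DEX 4 h replicate 1 (0.0523 to 0.0697).

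In the cytokinin list 1 of 18 passed. CGA1 (AT4G26150), a GATA factor that promotes chloroplast development, had levels of 9.42, 9.30 and 9.12 in mock and 9.77, 9.89 and 9.63 in DEX at 1 h, then 8.85, 8.62 and 8.87 in mock and 7.97, 7.83 and 7.90 in DEX at 4 h. DEX was the higher at 1 h in every array (0.48, not called) and the lower at 4 h (-0.88, called), a change of response of -1.37 (SE 0.15), with a limma adjusted p of 0.000363. With array weights, centring, renewed quantile normalization or without mock 4 h replicate 2 its rise at 1 h was also called. Its relative GNC had 0.79 at 1 h and 0.82 at 4 h, both called, and a change of 0.03 (adjusted p 0.98). Whether the 2 genes differ from each other was not tested.

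Few cell wall genes passed. Of 17 xyloglucan and xylan enzymes, 1 passed above and 2 below 0, and the median was -0.07. XTH15 (AT4G14130), a xyloglucan-modifying enzyme, had levels of 8.93, 8.81 and 8.63 in mock and 10.01, 9.91 and 10.00 in DEX at 1 h, then 8.62, 8.12 and 8.46 in mock and 11.09, 10.92 and 11.12 in DEX at 4 h. Its rise was present at 1 h (1.19) and larger at 4 h (2.65), with a change of 1.46 (limma adjusted p 0.000577). BXL1 (AT5G49360) and BXL2 (AT1G02640), beta-xylosidases of the wall, changed by -1.31 (0.00118) and -1.23 (0.00789), without called responses at 1 h. BXL1 had levels of 9.98, 9.81 and 9.86 in mock and 9.47, 9.63 and 9.53 in DEX at 1 h, then 9.88, 9.63 and 9.99 in mock and 8.42, 8.10 and 8.01 in DEX at 4 h. Of 12 expansins, proteins that loosen walls, 1 passed, EXPA3 (AT2G37640), at -1.12 (0.0113).

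In the stress and defence lists changes were few. RD29A (AT5G52310), a cold- and drought-induced gene, had levels of 8.31, 7.97 and 8.12 in mock and 7.68, 7.92 and 7.72 in DEX at 1 h, then 8.73, 8.60 and 8.86 in mock and 9.68, 10.24 and 10.93 in DEX at 4 h. DEX lay below mock at 1 h in every array (-0.36, not called) and above it at 4 h (1.55), with a spread of 0.63 (SD, n = 3) among the DEX 4 h arrays. It was the 1 of 11 cold genes that passed, at 1.92 (SE 0.31, limma adjusted p 0.00696). No gene passed among 15 abscisic acid genes, 14 ERF and ethylene genes, 15 jasmonate genes, 14 WRKY and defence genes, 4 touch genes and 12 wax and cuticle genes (0 by limma, with 1, 1, 1, 4, 0 and 3 at an unadjusted p under 0.05, against 11.5% of all loci). WRKY53, a factor linked to senescence, came nearest at 0.92 (adjusted p 0.0564), and WRKY18, with a log2 fold change of 2.46 at both times, had 0.00. Of 13 growth bHLH and shade genes, PAR1 (AT2G42870), a repressor of shade growth, passed at -1.32 (0.00196).

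Outside these lists the largest changes above 0 were in genes of other functions. CRK12 (AT4G23200), a receptor-like kinase, had levels of 5.87, 5.93 and 5.84 in mock and 6.54, 6.23 and 6.30 in DEX at 1 h, then 5.85, 5.84 and 5.91 in mock and 9.00, 9.07 and 9.34 in DEX at 4 h. DEX exceeded mock slightly at 1 h and widely at 4 h, and the change of 2.79 (SE 0.15) had the smallest limma adjusted p of all loci, 7.51e-07. PUP1 (AT1G28230), a purine permease, had levels of 7.37, 7.38 and 7.35 in mock and 7.81, 7.79 and 7.51 in DEX at 1 h, then 7.26, 6.76 and 7.36 in mock and 10.10, 10.05 and 10.34 in DEX at 4 h. Its DEX 4 h arrays lay above the other 9, and it changed by 2.70 (1.57e-05). MYB56 (AT5G17800), a MYB factor, changed by 2.18, AT5G49120 by 2.16, and BGLU11 (AT1G02850), a beta-glucosidase, by 2.15.

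Among the largest changes below 0 was DIR1 (AT5G48485), which encodes a lipid-transfer protein needed for systemic resistance, with levels of 11.52, 11.73 and 11.79 in mock and 11.45, 11.39 and 11.65 in DEX at 1 h, then 10.63, 10.91 and 10.62 in mock and 8.82, 9.49 and 8.79 in DEX at 4 h. Mock leaves fell from 1 h to 4 h and DEX leaves fell further, with a change of response of -1.50 (limma adjusted p 0.00472). LSH10 (AT2G42610), of the ALOG family of nuclear proteins, changed by -1.41, the transporter gene ABCG35 (AT1G15210) by -1.23, HB33 (AT1G75240), a homeodomain factor, by -1.16, and AT1G06080 by -1.12. LHCB2.3 (AT3G27690), a light-harvesting protein, changed by -1.13, the 1 of 10 photosynthesis genes to pass, and its level fell in mock (-0.83) and further in DEX (-1.96).

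Some calls rested more on the mock leaves than on the DEX leaves. Among those below 0, ACR7 (AT4G22780), an ACT-domain protein, rose by 1.08 in mock and moved by 0.11 in DEX, for a change of -0.97. HLS1 (AT4G37580), a gene of the apical hook, had 0.63 in mock, -0.33 in DEX and -0.96 as the change. ARF11 (AT2G46530), an auxin response factor, had -0.97 and UMAMIT44 (AT3G28130), an amino acid transporter of the UMAMIT family, -0.79. Above 0, AT4G04630 had -0.70 in mock, 0.65 in DEX and 1.35 as the change. The calls of ARF11, ACR7 and UMAMIT44 were lost without 11, 7 and 4 single arrays, with adjusted p up to 0.115 (without DEX 4 h replicate 1), 0.0867 (mock 1 h replicate 1) and 0.0698 (mock 1 h replicate 3).

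A response that was called as smaller at 4 h, with the same sign, was found in 1 locus, in 3 of the 4 fits without mock 4 h replicate 2 and in no other fit. KAT2 (AT4G18290), a potassium channel of guard cells picked after its values were seen, had levels of 7.21, 7.08 and 7.27 in mock and 9.11, 9.20 and 9.15 in DEX at 1 h, then 8.28, 6.77 and 8.14 in mock and 9.24, 8.89 and 9.45 in DEX at 4 h. DEX leaves held the same level at both times, and mock leaves were higher at 4 h in 2 of 3 arrays. With all arrays the log2 fold change was 1.97 at 1 h and 1.47 at 4 h, and the change of -0.50 did not pass (limma adjusted p 0.707). Without that array the 4 h value was 0.99 and the change of -0.98 passed (adjusted p 0.0113).

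The label leaf was checked against markers. All 10 photosynthesis genes were above the near-background level of 5.79 in each group. Of 8 root markers, 2 (PLT2 and RHD6) were under it in all 4 groups, and 5, SHR, SCR, COBL9, CASP1 and EXPA7, were under it in none. Of the 10 meristem and boundary markers, KNAT1 (AT4G08150), a homeobox gene of the meristem and of stems, passed. Its levels were 6.48, 6.59 and 6.49 in mock and 6.58, 6.61 and 6.41 in DEX at 1 h, then 7.11, 7.11 and 7.50 in mock and 5.99, 6.14 and 5.60 in DEX at 4 h. Mock leaves rose from 1 h to 4 h and DEX leaves fell, and the change of response was -1.34 (SE 0.20, limma adjusted p 0.00297). Of the list, 2 genes, WUS and CUC1, were under 5.79 in all 4 groups, whereas 5, STM, KNAT1, KNAT6, CLV3 and CUC2, were under it in none. The summed log2 level of the list ran from 9.56 to 9.57 in mock 1 h, 9.42 to 9.50 in DEX 1 h, 9.59 to 9.66 in mock 4 h and 9.15 to 9.31 in DEX 4 h. Its DEX 4 h arrays were lowest. The summed level was already lower in DEX than in mock at 1 h. Its part in the falls of the growth regulators at 4 h was not tested. Among 8 root markers 0 passed (1 at an unadjusted p under 0.05), and among 14 stomatal markers 0 (2 unadjusted). Of 9 trichome markers 1 passed, TTG2 (AT2G37260), a WRKY factor of trichomes and seed coats, at 1.19 (adjusted p 0.00686). The list as a whole leaned the other way, with a median of -0.27. At an unadjusted p under 0.05, 2 were above and 3 below 0, and at 4 h 4 were called falls and 1 a called rise. GIS and ZFP8, at -0.84 and -0.51, did not pass with all arrays. Without mock 4 h replicate 2 both passed as below 0.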

How the data were processed

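Affymetrix ATH1 arrays measured transcript levels in 12 samples of leaf 3. The deposited series table holds log2 values per probe set, made by the authors with RMA per the submitters' processing notes, which give no version. Its rows carry locus names, and how probes were assigned to loci is not given in the sources used here. Values ran from 4.43 to 14.1. After 64 control probe sets were left out, 21428 loci remained, of which 21231 matched the TAIR10.1 gene table used for names and 221 shared their values with another locus. Array data carry no read depth, so the number of arrays limits the precision.

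Groups came from the sample titles. A linear model with 1 mean per group was fitted to all loci with limma 3.58.1 in R 4.3.3, with 8 residual and 5.853 prior degrees of freedom, and p-values were adjusted by Benjamini-Hochberg over all 21428 loci, with 0.05 as the threshold. All tests were two-sided. A group mean of at most 5.79 was taken as near background. The fit was tested on simulated data. Figures were drawn with matplotlib 3.10.9.

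The comparison, its 34 gene lists (412 of 459 members measured) and the tests were chosen with earlier results of these data known. Named genes were called loci of exactly 1 gene with the 14 largest changes in each direction, up to 5 in each direction where the mock change was the larger, per list the 4 members of smallest p, passing or not, all called members of lists with 5 or fewer, and GAI and RGA. Other list members given with a value were picked after their values were seen. Alternatives were a threshold of 0.01, a replicate block, a mean of at least 6, renewed quantile normalization, centring, array weights, robust fitting with a variance trend, only loci matched to 1 gene, and leaving out arrays. Promoter sequences were not analysed here. Of the genes picked by the rule, 1 is not reported here.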

Additional observations from a re-analysis of the deposited data

Results flagged for a closer look

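The response to DEX differed between 1 h and 4 h at 274 loci, by the test of that difference itself in limma. Each gene named below is given because of this difference, with the change of response on the log2 scale, the response at 4 h minus that at 1 h.

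In genes of anthocyanin and flavonoid synthesis the values were 3.42 for DFR, 2.85 for UF3GT, 2.78 for AT4G14090, 2.64 for TT7, 2.51 for MYB75, 2.51 for PAL1, 2.43 for UGT78D2, 2.20 for TT19, 2.01 for MYBL2, 1.80 for TT8, 1.75 for F3H and 1.61 for TT4. All of these were above 0, the regulators MYB75, TT8 and the repressor MYBL2 included. In gibberellin genes and early DELLA targets they were 2.95 for GA20OX3, 1.35 for LBD40, 1.25 for AT3G11280, 1.14 for GID1B, 1.02 for AT2G31730, 0.84 for WRKY27 and 0.82 for GA3. The remaining values above 0 were 2.79 for CRK12, 2.70 for PUP1, 2.18 for MYB56, 2.16 for AT5G49120, 2.15 for BGLU11, 1.92 for RD29A, 1.58 for BR6OX2, 1.46 for XTH15, 1.35 for AT4G04630, 1.19 for TTG2, 1.03 for SAUR36 and 0.99 for DWF4.

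Below 0, genes of leaf growth and replication had -1.78 for KLU, -1.23 for GRF5, -1.02 for GRF7, -0.76 for AN3, -0.72 for CYCA3;1, -0.72 for CDT1A, -0.70 for GRF3 and -0.62 for PCNA1. Auxin and cell wall genes had -1.31 for BXL1, -1.23 for BXL2, -1.12 for EXPA3, -1.04 for PIN6, -0.97 for ARF11 and -0.89 for AUX1. Other genes below 0 had -1.50 for DIR1, -1.41 for LSH10, -1.37 for CGA1, -1.34 for KNAT1, -1.32 for PAR1, -1.23 for ABCG35, -1.16 for HB33, -1.13 for LHCB2.3, -1.12 for AT1G06080, -0.97 for ACR7, -0.96 for HLS1, -0.84 for AT1G23390 and -0.79 for UMAMIT44. No gene in these sentences had a change of the opposite sign under any alternative run.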

How the results depend on the processing

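The replicate numbers were not taken to pair the arrays, since only 3 of 18 same-number pairs had deviations correlated above 0.1 (from -0.0981 to 0.193), and 7 of 12 arrays correlated best with their own number. With the replicate number as a block, 267 loci were called, 201 above and 66 below 0, 238 of them in common with the 274, and 1 response called at 1 h was smaller or turned at 4 h instead of 0. That block ended the calls of GID1B, PCNA1 and AN3 and added GA20OX2 (adjusted p 0.0152) and WRKY53. With an adjusted p under 0.01, 117 loci passed, 98 above and 19 below 0 (83.8% above, against 75.5%), 22 of them larger at 4 h. Renewed quantile normalization gave 170 below 0 (57.4% above) and 1 smaller, centring 134 (57.7%) and 1, and a variance trend with robust fitting 2 smaller. Array weights gave 465 calls, 173 below 0 (62.8% above), 6 smaller and 82 larger. Responses counted as smaller in this section include those whose sign turned, as all 6 with array weights did. Over all settings there were 23 such cases, each a locus in a fit, and only 3, all of KAT2, kept their sign at 4 h. Leaving out 1 array or 1 replicate number gave 40 to 412 calls, 34 to 264 above and 6 to 171 below 0, 0 to 3 smaller and 4 to 67 larger at 4 h. The lowest counts came from fits with 2 arrays a group (85.0%, 74.3% and 93.0% above 0 without replicates 1, 2 and 3), the highest without mock 4 h replicate 2 (58.5%). Of 2 fits chosen after seeing the data, centring without that array gave 169 below 0 (58.3% above), 3 smaller and 63 larger, and the block without it 134 (61.0%) and 2. The causes were not tested. No called named gene reversed in any alternative, and values near 0 that were not called, such as GAI, changed sign in some. Centring moved the median of all loci from 0.03 to -0.07. Dim signal limits what can be measured at loci near background.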

Other observations

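Outside the gene lists, some called loci with known roles were picked after their values were seen. GASA4, a small gibberellin-induced protein, had a change of response of -0.78, from a log2 fold change of -0.12 at 1 h to -0.90 at 4 h, and all 3 DEX 4 h arrays lay below the other 9. GLK2, a factor for chloroplast genes, had -0.66, and NGA1, a factor of leaf margins, had -1.07. RPA2, a DNA-binding protein of replication, and WEE1, a kinase of the DNA damage checkpoint, had -0.78 and -0.74. Above 0, NIA2, a nitrate reductase, had 0.80, from a log2 fold change of 0.37 to 1.17, and ABCC2, a vacuolar transporter, had 1.51, with a DEX change of 0.79 and a mock change of -0.72. BBX23, a B-box factor of light signalling, had 0.97, and it was called at both times.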
